A study of Drosophila melanogaster with 6 samples.

Results

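Oxidative phosphorylation genes encode the enzymes of the inner mitochondrial membrane that turn fuel and oxygen into ATP. They were taken here as every gene whose symbol in the platform annotation begins with ND- (complex I), Sdh (complex II), UQCR- (complex III), COX (complex IV) or ATPsyn (complex V, the ATP synthase). The brightest probe set over all arrays stood for each gene. This gave 73 genes of the 11982 with a single-gene probe set: 32 of complex I, 7 of complex II, 6 of complex III, 14 of complex IV and 14 of complex V. Complex I passes electrons from NADH to ubiquinone, complex II does the same from succinate, complex III hands them to cytochrome c and complex IV to oxygen. The proton gradient built on the way drives the ATP synthase. In Drosophila the egg is loaded by the mother with mitochondria and with transcripts of these genes, and nearly all the subunits are encoded in the nucleus. Many of the genes also have a duplicate whose symbol ends in L ("like"), L1 or L2, and such duplicates are known for expression in the adult testis.

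RNA was measured on 6 Affymetrix arrays, 3 with RNA of embryos laid by brakeless germline clone mothers and 3 with RNA of embryos laid by control germline clone mothers. The labels number the arrays as biological replicates. Brakeless mothers had the genotype FRT2R G13 bks278 over FRT2R G13 ovoD1 and were mated to males with FRT2R G13 bks278 over the CyO balancer. Control mothers had FRT2R G13 over FRT2R G13 ovoD1 and were mated to FRT2R G13 males. Both groups therefore share the FRT2R G13 chromosome and the ovoD1 selection, in which only eggs of the homozygous germ line clones develop. Brakeless is a nuclear co-regulator of transcription encoded by sbb, and bks278 is a strong allele. The embryos were 2 to 4 h old and were pooled, so fewer cells of a type and less RNA per cell cannot be told apart. By the cross, part of each brakeless pool carried CyO and part lacked the zygotic gene as well.

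The values are log2 expression levels per probe set, normalized across the arrays by the authors with RMA. Over all probe sets the array medians ran from 3.59 to 3.73, and the mean correlation of an array with the others was 0.979 to 0.986, except for control replicate 3 at 0.964. The targeted gene sbb (2R, 18278198 to 18357296, Release 6 plus ISO1 MT) read 5.33, 4.45 and 4.61 in brakeless embryos, against 6.01, 6.71 and 6.06 in control embryos, with no overlap, a difference of -1.46 (limma adjusted p = 0.320). The probe set used is the brightest of 3 for sbb, and the others are not given here. Whether that probe set covers the part altered in bks278 is not known here. Groups were compared with limma over all 18769 probe sets, with Benjamini-Hochberg adjustment and a threshold of 0.05. Every difference below is brakeless minus control on the log2 scale. Over all probe sets 26 passed, or 0.139%. At an unadjusted p under 0.05 there were 4.78%, and 10.1% had groups that did not overlap. A probe set is called bright here where its mean was above 4.50, the 60th percentile of all probe sets.

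None of the 73 genes passed the limma test, in either direction, and 2 had an unadjusted p under 0.05 (2 lower, 0 higher), against 4.78% of all probe sets in either direction, 2.97% lower and 1.82% higher. In 67 of the 73 the difference was under 0.5 in size. The groups were apart in 5 genes, 4 of them lower and 1 higher in brakeless embryos, where 5.4% and 4.68% of all probe sets were apart in those directions. The 4 lower ones were ATPsynepsilonL, COX4L, ND-39 and ATPsynF, and the higher one was the dim paralog ATPsynCF6L. The differences were below 0 in 48 genes and above 0 in 25, where 49.5% of all probe sets were below 0. Their median was -0.071, beside a median of 0.0022 over all probe sets. With 1 array left out the count below 0 ran from 35 to 51 and the median from -0.16 to 0.017. The 35 and the median above 0 came without brakeless replicate 1. The 95% interval of a member's difference, not adjusted for the number of probe sets, reached 0.46 to either side at the median. Over the 50 bright members that are no paralog it reached 0.54. For a typical member a smaller difference could not be told from 0 with 3 arrays a group. A larger one could still miss the adjusted threshold.

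**Figure D1:**
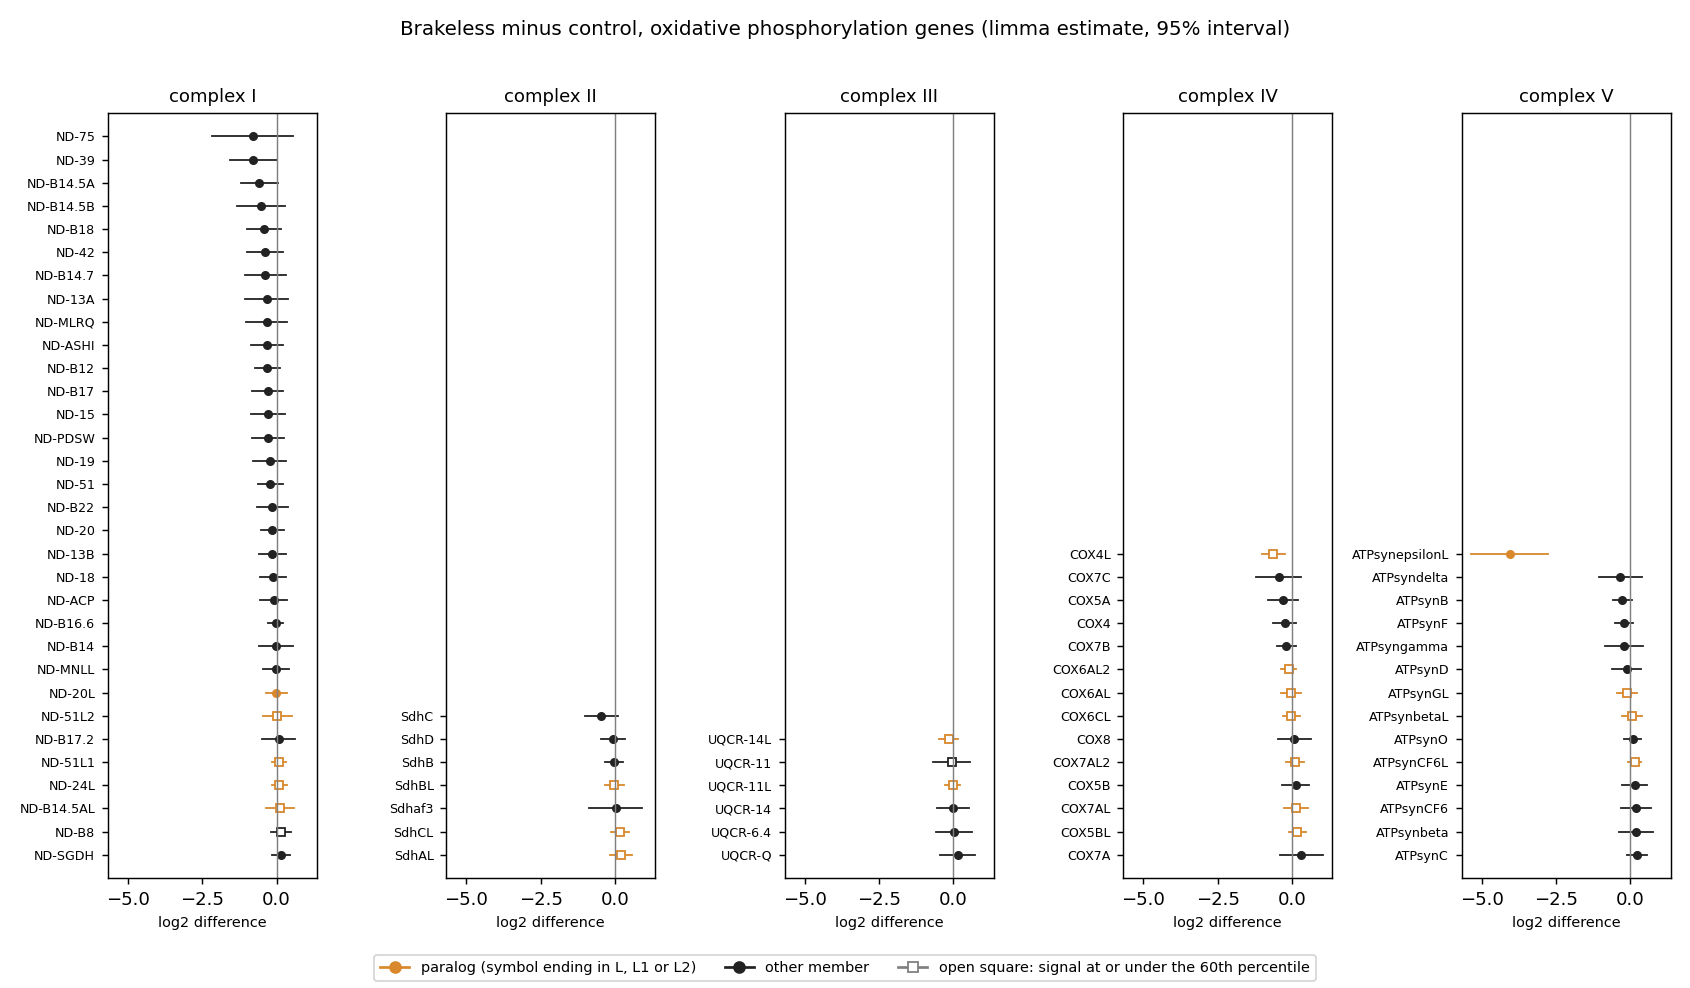
Log2 difference, brakeless minus control, of each of the 73 genes with its 95% interval from limma, 1 panel for each complex. Orange marks paralogs, black the other members, and open squares genes at or under the 60th percentile of signal. ATPsynepsilonL at -4.06 stands far left of the rest, which lie between -0.81 and 0.32.

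The member with the greatest difference was ATPsynepsilonL (3R, 10121773 to 10122320), a duplicate of the gene for the epsilon subunit of the ATP synthase, which sits in the central stalk of the enzyme. It read 4.59, 4.66 and 6.35 in brakeless embryos, against 9.68, 8.72 and 9.39 in control embryos. All brakeless arrays lay at least 2.37 below every control array, and brakeless replicate 3 stood above the other two of its group. The means were 5.20 ± 1.0 in brakeless and 9.26 ± 0.49 in control embryos (± SD over 3 arrays each). The difference was -4.06 (SE 0.53, 95% interval -5.35 to -2.77), or 16.7-fold lower in brakeless embryos. It was the fifth most negative of all 18769 probe sets (rank 5) and ranked 54 by unadjusted p (0.000244). The limma adjusted p of 0.0841 missed the threshold. It passed with array weights (limma adjusted p = 0.0318), with the filter at the 60th percentile (0.0450) and with a trended and robust prior (0.0248). With 1 array left out the difference stayed between -4.64 and -3.76, and the limma adjusted p ran from 0.0532 without brakeless replicate 3 to 0.491 without brakeless replicate 2.

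The parent gene of that duplicate is sun (stunted), which encodes the epsilon subunit itself and whose product is also known as a ligand of the receptor Methuselah. Its probe set read 6.29, 6.17 and 6.35 in brakeless embryos, against 6.44, 6.22 and 6.32 in control embryos, with overlap, and its difference was -0.058 (interval -0.33 to 0.21, limma adjusted p = 0.998). The genes that flank ATPsynepsilonL on 3R were looked at after its value was seen. Of the 5 measured genes on each side, none passed the limma test, and 1 of the 10 had an unadjusted p under 0.05. Their differences ran from -0.31 for knk, which begins 0.045 kb beyond the end of ATPsynepsilonL, to 0.48 for tws, a regulatory subunit gene of protein phosphatase PP2A. The groups were apart for knk, lower in brakeless embryos. The value of tws rests on control replicate 3, which read 2.86 against 6.77 and 6.28 in the other control arrays, and without it tws had -0.74, below every other neighbour as reported. The gene on the other side, gammaSnap2, ends 0.373 kb away and had -0.11. The next one, CAH7, a carbonic anhydrase gene, had 0.30 with groups apart as well, higher in brakeless embryos. Among all probe sets 10.1% were apart. So the difference of -4.06 was seen at 1 of 11 adjacent measured genes. Both gammaSnap2 and knk were dim, at means of 2.86 and 3.56. ATPsynepsilonL lies on another chromosome than sbb and the FRT2R G13 arm. The genotypes given name nothing on 3R, and whether the brakeless and control stocks differed there was not tested.

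**Figure D2:**
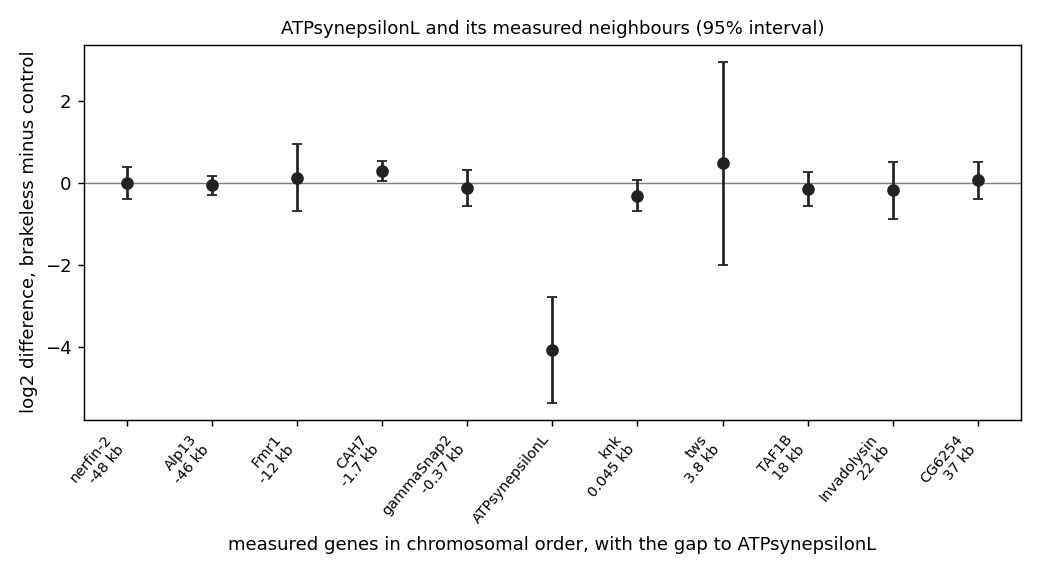
Log2 difference, brakeless minus control, with 95% intervals from limma, for ATPsynepsilonL and the 5 measured genes on each side in chromosomal order. Below each name is the gap between gene ends in kb. The 10 neighbours lie between -0.31 and 0.48, and the interval of tws, which had -0.74 without control replicate 3, is the widest.

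Complex I is the largest of the 5 enzymes, and its members were mostly lower in brakeless embryos by amounts that did not pass the test. Of its 32 genes 25 had a difference below 0, with a median of -0.18, and 0 passed (limma, 0 with an unadjusted p under 0.05). Among bright probe sets 0.306% passed and 8.03% had an unadjusted p under 0.05. Among its 26 bright genes that are no paralog, 24 were below 0 with a median of -0.29, beside 48.1% of all bright probe sets below 0 and a median of 0.015 over them. The groups were apart in 1 of the 26 (ND-39), against 11.6% of bright probe sets. Without brakeless replicate 1 the count below 0 was 18 and the median -0.11. Without control replicate 3 they were 23 and -0.14.

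The 3 complex I genes with the smallest unadjusted p all encode accessory subunits, which surround the electron-carrying core. ND-39 (3L, 20492082 to 20497084) read 10.48, 10.57 and 9.92 in brakeless embryos, against 10.80, 10.77 and 11.73 in control embryos. Its groups were apart, by a narrow gap between brakeless replicate 2 and control replicate 2, and control replicate 3 stood well above the rest. The difference was -0.78 (SE 0.32, interval -1.55 to 0.0011, limma adjusted p = 0.998), and -0.46 without control replicate 3. ND-B14.5A (X, 2172526 to 2173432) read 9.94, 10.35 and 10.47 in brakeless embryos, against 10.97, 10.36 and 11.16 in control embryos, so that brakeless replicate 3 lay above control replicate 2. Its difference was -0.58 (interval -1.20 to 0.037, limma adjusted p = 0.998). ND-B18 (X, 15063733 to 15064926) read 10.22, 10.69 and 10.73 in brakeless embryos, against 11.14, 10.55 and 11.22 in control embryos, again with overlap, a difference of -0.42 (interval -1.0 to 0.15, limma adjusted p = 0.998).

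Core subunits of complex I were represented by ND-75, ND-51 and ND-20. ND-75 (X, 8248651 to 8251687), the iron-sulphur protein that takes electrons from the flavin site, read 9.24, 8.77 and 7.73 in brakeless embryos, against 8.55, 9.32 and 10.29 in control embryos. Brakeless replicate 3 was lowest and control replicate 3 highest, with overlap between. Its difference of -0.81 had the widest interval of the complex (-2.16 to 0.54, limma adjusted p = 0.998), and it was -0.36 without control replicate 3 and -0.38 without brakeless replicate 3. ND-51, the flavoprotein that binds NADH, read 10.39, 10.52 and 10.08 in brakeless embryos, against 10.44, 10.41 and 10.76 in control embryos, with overlap and a difference of -0.21. ND-20, which carries the last iron-sulphur cluster before ubiquinone, read 10.36, 10.80 and 10.45 in brakeless embryos, against 10.53, 10.65 and 10.85 in control embryos, a difference of -0.14. Both overlapped, and neither passed (limma adjusted p = 0.998 and 0.998).

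The other bright accessory genes of complex I had differences whose 95% intervals all included 0. ND-B14.5B (-0.53), ND-42 (-0.38), ND-B14.7 (-0.37), ND-13A (-0.34), ND-MLRQ (-0.33), ND-ASHI (-0.32), ND-B12 (-0.31) and ND-B17 (-0.30) had log2 differences of 0.3 or more below 0. ND-MLRQ carries the name of its mammalian counterpart, which is now counted as part of complex IV in mammals. ND-15 (-0.29), ND-PDSW (-0.29), ND-19 (-0.24), ND-B22 (-0.15), ND-13B (-0.14), ND-18 (-0.12), ND-ACP (-0.092), ND-B16.6 (-0.034), ND-B14 (-0.024) and ND-MNLL (-0.022) lay nearer to 0 on the same side. ND-ACP is the mitochondrial acyl carrier protein. Only 2 bright genes of the complex were above 0, ND-SGDH (0.16) and ND-B17.2 (0.072). In each of these 20 genes the groups overlapped, and the limma adjusted p was 0.998. ND-B8, another accessory gene, was dim at a mean of 2.71, and its difference was 0.15. The dim paralogs of complex I were ND-24L (0.095), ND-51L1 (0.080), ND-51L2 (0.021) and ND-B14.5AL (0.11).

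Complex II, succinate dehydrogenase, also works in the tricarboxylic acid (TCA) cycle. It was represented by 3 subunit genes, an assembly factor and 3 paralogs, and 0 of the 7 passed (limma, 0 with an unadjusted p under 0.05). SdhC (3R, 11208887 to 11209849), a membrane anchor, read 10.31, 10.72 and 10.93 in brakeless embryos, against 11.31, 10.76 and 11.29 in control embryos, with brakeless replicate 1 lowest and overlap through control replicate 2. Its difference was -0.46 (SE 0.23, interval -1.02 to 0.090, limma adjusted p = 0.998). SdhD, the second anchor, read 10.20, 10.67 and 10.64 in brakeless embryos, against 10.62, 10.44 and 10.66 in control embryos, a difference of -0.071 (interval -0.46 to 0.32). SdhB, the iron-sulphur subunit, read 9.60, 9.85 and 9.84 in brakeless embryos, against 9.69, 9.92 and 9.77 in control embryos, a difference of -0.030 (interval -0.33 to 0.27). Sdhaf3, which helps to insert the iron-sulphur clusters of SdhB, read 8.70, 9.22 and 9.60 in brakeless embryos, against 9.49, 8.48 and 9.50 in control embryos, and its spread within each group exceeded its difference of 0.017 (interval -0.86 to 0.89). The paralogs were dim: the differences were 0.20 for SdhAL, -0.022 for SdhBL and 0.16 for SdhCL. The signs of SdhB, SdhBL, SdhD and Sdhaf3 turned when single arrays were left out.

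Complex III members were near 0 throughout, with differences from -0.16 to 0.14 and a median of -0.027 over 6 genes, and 0 passed (limma, 0 with an unadjusted p under 0.05). The 3 bright ones are small subunits around the cytochrome core. UQCR-14 read 11.83, 12.18 and 12.38 in brakeless embryos, against 12.49, 12.13 and 11.84 in control embryos, a difference of -0.023. UQCR-6.4 read 11.55, 12.30 and 12.30 in brakeless embryos, against 12.22, 11.81 and 12.07 in control embryos, a difference of 0.017. Brakeless replicate 1 was the lowest array for both. UQCR-Q, the ubiquinone-binding subunit, read 10.76, 10.84 and 11.05 in brakeless embryos, against 11.02, 10.97 and 10.23 in control embryos, where control replicate 3 was lowest, and its difference of 0.14 was -0.12 without that array and -0.029 with array weights. UQCR-11, an acidic subunit, was dim at a mean of 4.04 and had -0.056. Its paralog UQCR-11L had -0.030 and UQCR-14L had -0.16, both dim.

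Complex IV, cytochrome c oxidase, has its catalytic core encoded by mitochondrial DNA, and the members here are nuclear subunits around it. None of the 14 passed (limma), and 1, the paralog COX4L, had an unadjusted p under 0.05. COX4L (2R, 5353994 to 5354723) read 3.06, 3.21 and 3.36 in brakeless embryos, against 3.92, 3.58 and 4.00 in control embryos, with the groups apart. Its difference was -0.62 (SE 0.15, interval -1.0 to -0.25, limma adjusted p = 0.518), and its mean of 3.52 lay below the median of all probe sets (3.67). Its parent COX4 read 11.61, 11.84 and 11.53 in brakeless embryos, against 11.77, 11.81 and 12.15 in control embryos, with overlap and a difference of -0.25 (interval -0.62 to 0.12, limma adjusted p = 0.998). COX5A read 11.94, 12.30 and 12.40 in brakeless embryos, against 12.57, 12.19 and 12.81 in control embryos, also with overlap, a difference of -0.31 (interval -0.80 to 0.19).

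The remaining bright genes of complex IV lay on both sides of 0. COX7A read 10.90, 11.41 and 11.68 in brakeless embryos, against 11.50, 10.87 and 10.66 in control embryos, the greatest positive difference of the 73 genes at 0.32 (interval -0.39 to 1.03, limma adjusted p = 0.998). The groups overlapped, with control replicate 3 lowest. With 1 array left out the difference ran from 0.14 (without brakeless replicate 3) to 0.56 (without control replicate 1), and with array weights it was 0.18, under the 0.19 of ATPsynC. COX7C read 10.90, 11.55 and 11.84 in brakeless embryos, against 12.10, 11.41 and 12.11 in control embryos, with brakeless replicate 1 lowest, and had -0.45. COX7B had -0.19, COX8 0.080 and COX5B 0.13, all with overlap. The median of all 14 genes was -0.024 and that of the 7 bright ones -0.19. The dim paralogs COX5BL, COX6AL, COX6AL2, COX6CL, COX7AL and COX7AL2 had differences between -0.11 (COX6AL2) and 0.17 (COX5BL).

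Apart from ATPsynepsilonL, complex V differed little between the groups. Its 10 bright genes that are no paralog split evenly, 5 below and 5 above 0, with a median of -0.026, and 0 passed (limma, 0 with an unadjusted p under 0.05). ATPsynB (3L, 9729999 to 9731224), of the stalk that holds the catalytic head in place, read 11.93, 12.16 and 12.04 in brakeless embryos, against 12.32, 12.13 and 12.49 in control embryos, with brakeless replicate 2 just above control replicate 2. Its difference was -0.27 (SE 0.13, interval -0.59 to 0.056, limma adjusted p = 0.998). ATPsynF, a membrane subunit, read 12.72, 12.94 and 12.93 in brakeless embryos, against 13.06, 12.96 and 13.25 in control embryos. Its groups were apart by a narrow gap, and the difference was -0.22 (interval -0.53 to 0.084, limma adjusted p = 0.998). ATPsynC, whose products form the rotating ring in the membrane, read 12.23, 12.00 and 11.95 in brakeless embryos, against 11.77, 12.02 and 11.73 in control embryos, a difference of 0.22 (interval -0.11 to 0.54, limma adjusted p = 0.998).

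Subunits of the catalytic head and the central stalk showed no common direction. ATPsynbeta, the catalytic subunit, read 12.04, 11.75 and 11.93 in brakeless embryos, against 11.96, 11.98 and 11.22 in control embryos. Control replicate 3 was lowest, and the difference of 0.19 was -0.062 without that array. A second bright probe set of ATPsynbeta had 0.45. ATPsyngamma, the rotor shaft, had -0.21 and ATPsyndelta, beside it in the central stalk, -0.34. Among the peripheral stalk genes ATPsynD had -0.13, ATPsynCF6 0.18 and ATPsynO 0.073, and the membrane subunit gene ATPsynE had 0.15. All of these overlapped between the groups. The dim paralogs ATPsynCF6L (0.14), ATPsynGL (-0.10) and ATPsynbetaL (0.058) were near 0. For ATPsynCF6L the lowest brakeless array, at 3.18, lay just above the highest control array, at 3.11.

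**Figure D3:**
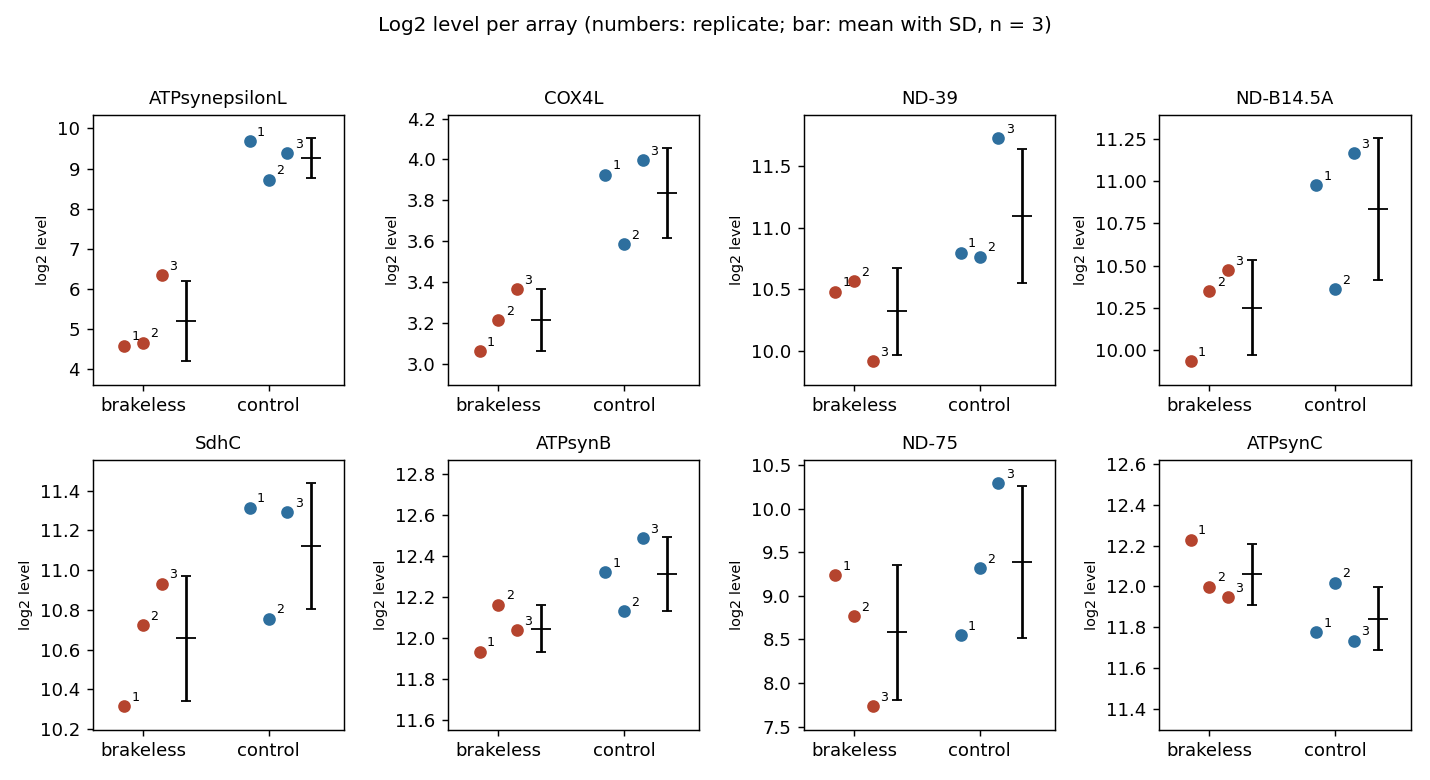
Log2 level on each array of 8 members, brakeless left and control right in each panel, with the replicate number beside each point and the mean with its SD (n = 3 each) as a bar. The groups lie wide apart for ATPsynepsilonL, narrowly apart for ND-39 and COX4L, and overlap in the other 5. Each panel has its own axis.

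Of the 73 genes 21 are paralogs by their symbol. Leaving out ATPsynepsilonL, the other 20 had means from 2.62 to 4.94, and 18 of them lay below the median of all probe sets. Their differences ran from -0.62 (COX4L) to 0.20 (SdhAL), and the median over all 21 was 0.021. For 14 paralogs the parent gene was also a member. On its own probe set each parent lay between the 55.8th and the 99.1th percentile of all probe sets, and each of those paralogs between the 12.0th and the 62.3th. Probe sets differ in how they bind, so this compares signals and not transcript numbers. ND-20L, which had the brightest signal among these 14, read 4.87, 5.05 and 4.90 in brakeless embryos, against 5.04, 4.70 and 5.09 in control embryos, with overlap and a difference of -0.0034. ATPsynbetaL, the next, read 3.94, 3.87 and 4.06 in brakeless embryos, against 3.90, 3.68 and 4.11 in control embryos, a difference of 0.058.

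The bright members of complexes I, II and IV shared an order of arrays that those of complexes III and V did not. Over the 50 bright genes that are no paralog, the median deviation from a gene's own mean was -0.30, -0.0029 and 0.090 in brakeless embryos, against 0.18, -0.14 and 0.26 in control embryos. Brakeless replicate 1 was the lowest of the 6 arrays for 32 of the 50 genes, and control replicate 3 the highest for 23. Of all 7508 bright probe sets, brakeless replicate 1 was lowest for 1337. Control replicate 3 was highest for 2343 of the 7508 and lowest for 2237, so it was often extreme in either direction. The same order of arrays, from brakeless replicate 1 (lowest) through control replicate 2, brakeless replicate 2, brakeless replicate 3 and control replicate 1 to control replicate 3 (highest), held for the medians of all 50 genes, of which complex I supplies 26, of complex I and of complex IV. It held for complex II as well, with 4 bright genes. The array medians of all probe sets, at 3.59 to 3.73, had nearly the same order, with only brakeless replicate 3 and control replicate 1 exchanged. All bright probe sets together did not follow it. Their median deviations were 0.083, 0.015 and 0.0020 in brakeless embryos, against -0.0095, 0.053 and 0.049 in control embryos. For complex V the order was brakeless replicate 1 (lowest), brakeless replicate 2, control replicate 2, control replicate 3, brakeless replicate 3 and control replicate 1 (highest). For complex III, with 3 genes, control replicate 3 had a median deviation of -0.30, next to the lowest, brakeless replicate 1 at -0.31. The median pooled SD within groups was 0.30 for these 50 genes and 0.37 for all bright probe sets. The differences were below 0 in 37 of the 50, with a median of -0.17. Without brakeless replicate 1 they were below 0 in 28, with a median of -0.049, and without control replicate 3 in 40, with a median of -0.096. Control replicate 3 was highest for 15 of the 26 complex I genes, and among the 10 complex V genes it was highest for 4 and lowest for 4.

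**Figure D4:**
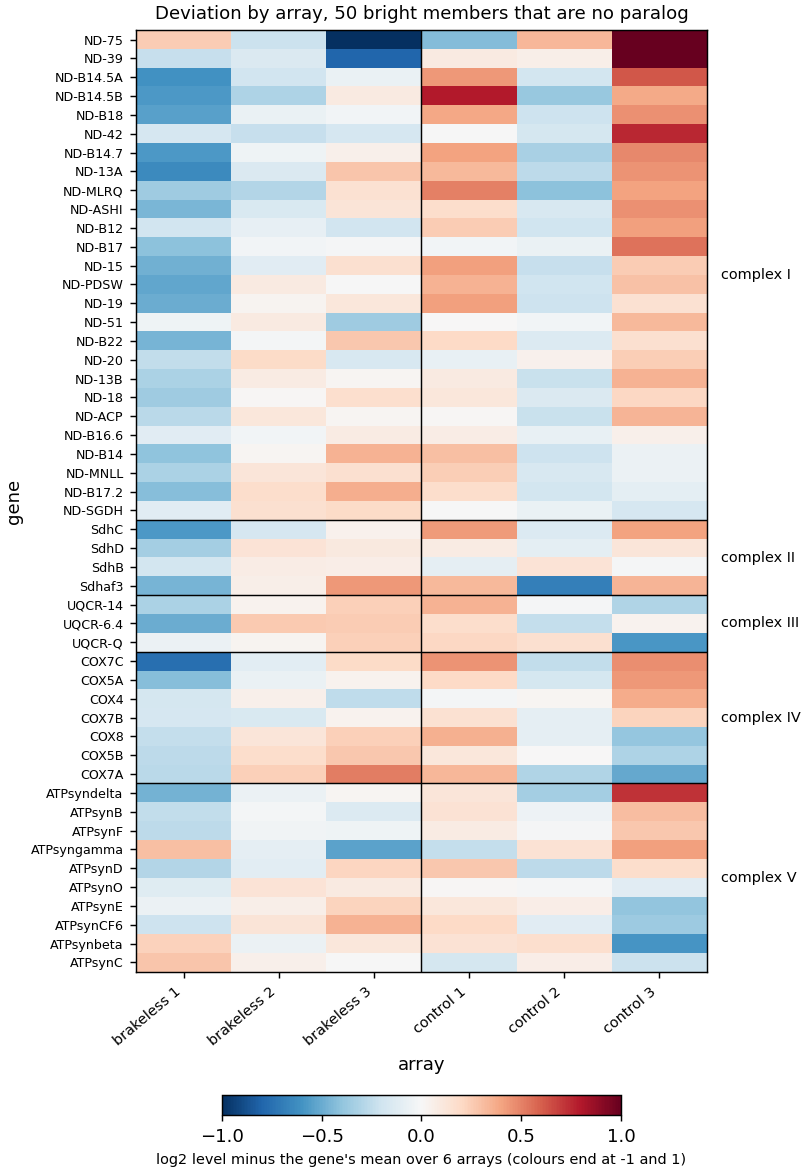
Deviation of each array from the gene's own mean over the 6 arrays (log2, red above, blue below) for the 50 bright members that are no paralog, ordered by complex and, within it, by the difference. Brakeless replicate 1 is blue in most rows, and control replicate 3 is red in most rows of complex I.

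Markers of embryo age differed between the same arrays, and their part in these results was not tested. Cleared maternal transcripts, which the mother supplies and the embryo then destroys, had median deviations of 0.63, 0.24 and -0.053 in brakeless embryos, against -0.33, 0.42 and -0.75 in control embryos over 6 measured genes of 8. Their arrays ran in the opposite order to that of the 50 bright members, complex I, complex II and complex IV. All 6 were higher in brakeless embryos, with a median difference of 0.51, and none passed (limma). Without control replicate 3 the median was 0.21 and 5 of the 6 were above 0, twe having -0.014. The summed log2 level over the 6 was 64.9 to 68.9 in brakeless and 59.5 to 67.4 in control embryos. Among them bcd had 0.52 and osk 0.51, and osk had 0.25 without control replicate 3. Cellularization genes, active when membranes enclose the blastoderm nuclei, had -0.65, -0.32 and -0.00090 in brakeless embryos, against 0.59, 0.31 and -0.15 in control embryos over 6 of 6, with -1.03 for Sry-alpha and -0.63 for nullo. Their sums were 50.7 to 55.2 in brakeless and 53.7 to 57.8 in control embryos. Muscle genes of older embryos had -1.64, -0.12 and 1.06 in brakeless embryos, against 0.87, 1.39 and -0.90 in control embryos over 5 of 8 measured genes, with -0.84 for Mlc2 and -0.80 for up, and sums of 18.1 to 32.0 in brakeless and 22.8 to 34.6 in control embryos. All 5 were below 0, with a median of -0.80, but without brakeless replicate 1 the median was 0.084 and 3 of the 5 were above 0. The age lists did not order the arrays alike. The cellularization and muscle lists followed neither the order of the 50 bright members nor its reverse. Control replicate 3 had the lowest cleared maternal median, at -0.75, and next to the lowest muscle median, at -0.90.

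Markers of other tissues were dim apart from the neuron marker elav, which read 5.72, 5.23 and 6.42 in brakeless embryos, against 6.82, 6.81 and 4.22 in control embryos. Its difference was -0.16, and it ran from -1.02 (without control replicate 3) to 0.28 (without control replicate 1). The 3 measured neuron markers had a median difference of -0.16, with -0.16 for nSyb and -0.14 for brp, and sums of 12.9 to 14.7 in brakeless and 12.6 to 15.1 in control embryos. The 2 fat body markers Lsp2 (0.080) and Fbp1 (0.024) lay at the 54.8th percentile (Lsp2) and the 53.4th (Fbp1), with sums of 7.6 to 8.0 in brakeless and 7.5 to 8.2 in control embryos. The 4 male germline markers lay between the 1.28th and the 8.61th percentile. They had differences such as 0.11 for can and -0.17 for betaTub85D, and sums of 9.9 to 10.5 in brakeless and 9.6 to 10.6 in control embryos. An array signal has no true 0, so no marker could be called absent. RNA quality was followed on the Affymetrix control probe sets, where the 3′ minus 5′ log2 difference for actin was 1.30 to 1.82 in brakeless and 1.29 to 1.69 in control arrays. It was 1.07 to 1.17 in brakeless and 1.04 to 1.24 in control arrays for GAPDH. For eIF-4a it was 2.18 to 2.48 in brakeless and 2.05 to 2.33 in control arrays. These ranges overlapped. By array, actin had 1.59 and 1.82 in brakeless replicates 1 and 2 and 1.69 in control replicate 2. It had 1.30 in brakeless replicate 3, and 1.29 and 1.42 in control replicates 1 and 3. The arrays with the higher actin values were those at the low end of the order of the 50 bright members. GAPDH and eIF-4a did not divide the arrays in that way. The part of RNA quality in these results was not tested. Across the 50 bright members that are no paralog, the gene length in RefSeq had a Spearman correlation of 0.36 with brakeless replicate 1 minus brakeless replicate 3 and of 0.33 with control replicate 2 minus control replicate 1. With the brakeless minus control difference it was -0.26. Those are correlations across genes that share the same arrays. Gene length here is the span from start to end on the chromosome, introns included, and not the length of the transcript.

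**Figure D5:**
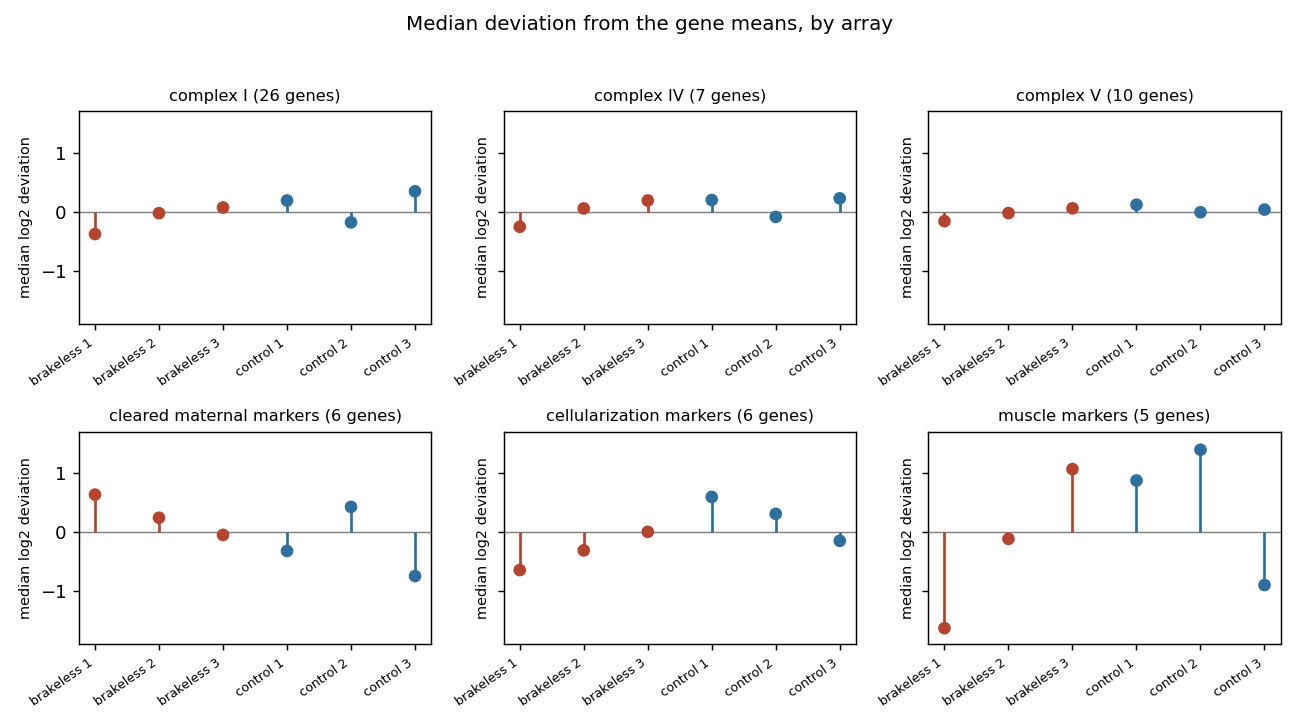
Median log2 deviation from the gene means on each array (brakeless red, control blue) for the bright genes of complexes I, IV and V and for markers of embryo age. Complex I and complex IV run in the opposite order to the cleared maternal markers, and complex V does not. The cellularization and muscle markers follow neither that order nor its reverse. The muscle markers spread most widely, from -1.64 to 1.39.

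By chromosome, the 50 bright members that are no paralog had a median difference of -0.27 on 2L (10 genes), -0.23 on 2R (8), -0.14 on 3L (9), -0.027 on 3R (12) and -0.23 on the X (10), and the single gene on 4, ATPsynbeta, had 0.19. Below 0 were 8 of 10 on 2L, 7 of 8 on 2R (the arm of the FRT2R G13 clones), 6 of 9 on 3L, 6 of 12 on 3R and 10 of 10 on the X. Of the bright probe sets of all chromosomes 48.1% were below 0. Among these bright members, all on the X but UQCR-14 and ATPsyndelta belong to complex I, and on 3R only ND-42 does. Chromosome and complex were therefore not separated here.

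Other genes of the pathway, outside the symbol rule, were taken from lists of subunits with other names, assembly factors, carriers, TCA cycle enzymes and regulators of respiratory genes. None of the 36 measured genes of these 5 lists passed (limma), and 5 had an unadjusted p under 0.05, 2 higher and 3 lower in brakeless embryos, beside 4.78% of all probe sets and 8.03% of bright ones. The groups were apart in 6 of the 36, beside 10.1% of all probe sets. Of the 7 measured subunit genes of 11 listed, 6 were below 0, with a median of -0.062. RFeSP, the iron-sulphur protein of complex III, read 11.38, 11.51 and 11.18 in brakeless embryos, against 11.61, 11.44 and 12.35 in control embryos, a difference of -0.45 (interval -1.07 to 0.17), which was -0.17 without control replicate 3. The complex IV subunit gene levy had -0.17, and blw, the alpha subunit of the ATP synthase, had -0.028 with a spread within groups from 10.28 to 12.28 in brakeless embryos and from 10.57 to 11.85 in control embryos.

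Assembly factors held the smallest p of these lists. Of 7 measured genes of 10, Bcs1, a chaperone that inserts the iron-sulphur protein into complex III, read 8.44, 8.41 and 8.36 in brakeless embryos, against 7.58, 7.78 and 7.81 in control embryos, with the groups wide apart. Its difference was 0.68 (SE 0.11, interval 0.42 to 0.94), and it did not pass (limma adjusted p = 0.153, unadjusted p = 0.000691). Cox10, which makes the heme of complex IV, read 9.71, 9.69 and 9.80 in brakeless embryos, against 10.10, 9.88 and 10.25 in control embryos, also apart, a difference of -0.35 (interval -0.65 to -0.038, limma adjusted p = 0.963). The list's median was -0.027.

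Of the 5 carriers 4 were below 0, with a median of -0.11, and TCA cycle enzymes and regulators lay on both sides of 0. Among the carriers Ant2, a second ADP/ATP exchanger, read 4.15, 4.13 and 4.05 in brakeless embryos, against 4.44, 4.56 and 4.63 in control embryos, apart but dim, a difference of -0.43 (limma adjusted p = 0.459), while Mpcp1, a phosphate carrier, had -0.28. The 8 measured TCA genes of 13 split 4 to 4, with a median of 0.029. ScsbetaG, of succinyl-CoA synthetase, read 8.46, 8.26 and 8.56 in brakeless embryos, against 8.92, 8.89 and 9.40 in control embryos, apart, a difference of -0.64 (interval -1.07 to -0.21, limma adjusted p = 0.652). Idh3b, of isocitrate dehydrogenase, had -0.31 and was apart as well. Among 9 measured regulators of 12, mtDNA-helicase, which unwinds mitochondrial DNA, read 8.70, 8.88 and 8.80 in brakeless embryos, against 8.29, 8.41 and 8.54 in control embryos, apart, a difference of 0.38 (limma adjusted p = 0.731). The mitochondrial transcription terminator gene mTTF had -0.38, with overlap, and the median of the list was -0.073.

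Another probe set was present for 6 of the 73 genes. Within a gene the differences of 2 probe sets lay at most 0.42 apart, for COX7C, where the unused probe set was dim. Bright unused probe sets had 0.45 for ATPsynbeta, against 0.19 as reported, and -0.44 for ATPsyngamma, against -0.21. For ND-ACP they had -0.025 and -0.32, against -0.092. A further 4 probe sets matched a gene of these prefixes and a second gene and were left out. They held COX6B, ATPsynG and ND-AGGG, which are therefore not among the 73, and the member COX6AL2. Their differences ran from -0.16 to 0.24, with overlap in each.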

How the data were processed

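The submitters' processing notes name RMA (robust multi-array averaging) for the deposited log2 values, and the sources used here do not state its settings. The deposited table holds 18952 probe sets; 183 Affymetrix control probe sets were left out, and the other 18769 entered the comparison as reported. Of these 13647 had 1 gene symbol, 402 several and 4720 none. The members and gene lists were chosen with earlier results of these data known. All 73 members were found in RefSeq (Release 6 plus ISO1 MT), which gave the positions. Paralogs are members whose symbol ends in L, L1 or L2, without ND-MNLL, which is named for a mammalian subunit.

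The groups were compared with limma 3.58.1 (R 4.3.3, lmFit and eBayes, two-sided, 4 residual degrees of freedom, no filter on dim probe sets) with Benjamini-Hochberg adjustment over all probe sets, after the code was tested on simulated data. A dim probe set says little about its gene, and precision is limited by the 3 arrays of each group. The labels call the samples biological replicates without saying what separated them, so the p-values measure the spread between these samples. The number in the title was used for control replicate 3, whose description carries another. Genes were named by rule: the 3 members of complexes I, III, IV and V with the smallest unadjusted p, every Sdh gene, the 2 greatest and 2 most negative differences, the 2 brightest paralogs with a parent among the members, and the 2 genes of each list with the smallest unadjusted p. Others named were chosen after their values were seen. Alternatives were array weights, 2 filters on dim probe sets, a mean over probe sets, centred arrays, repeated quantile normalization, a replicate block, a trended and robust prior, and leaving out each array. Scan dates and slides were not used here.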

Additional observations from a re-analysis of the deposited data

How the results depend on the processing

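With 3 arrays a group, and 2 when one is left out, only large differences could pass. No member was called higher in brakeless embryos under any alternative. The limma count of members called lower, 0 in the comparison as reported (2 with an unadjusted p under 0.05, a threshold added after the data were seen, against 898 probe sets), was 1, ATPsynepsilonL, with array weights, with the filter at the 60th percentile and with a trended and robust prior, and 0 with any 1 array left out. Over all probe sets the 6 called higher became 19 with array weights, 12 with a trended and robust prior, 0 with the replicate block and 0 to 10 with an array left out. The 20 called lower became 55, 34, 0 and 0 to 23 in the same order. Arrays of the same number did not deviate together (correlations -0.40, -0.23 and -0.32), and pairs of unlike number had -0.29 to 0.55. Deviations within a group of 3 sum to 0, which ties these values together. They therefore cannot settle whether the numbers pair the arrays. Under the block ATPsynepsilonL had a limma adjusted p of 0.380.

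The median of complex IV was -0.19 with the filters at the 40th and 60th percentiles. Of its 7 paralogs the first kept 2 (COX4L and COX6AL) and the other none. The median of complex V was -0.13 with the filter at the 60th percentile and -0.12 to 0.029 with an array left out, and that of the paralogs -2.03 with that filter, which kept only ND-20L and ATPsynepsilonL. The counts of genes below 0 without single arrays, the medians of the bright genes, and the values of marker lists, tws, elav and twe without single arrays were added after the data were seen: with an array left out 28 to 41 of the 50 bright genes were below 0. Sry-alpha passed with array weights (-0.98, limma adjusted p = 0.0414). Signs turned mostly for differences near 0, and the cause was not tested. With array weights the difference was -0.029 for UQCR-Q, 0.027 for SdhB, 0.0078 for SdhD, 0.051 for ND-20L, 0.038 for ND-20 and -0.019 for ATPsynbeta. With centred arrays it was 0.0037 for SdhBL and 0.022 for ND-20L, and with repeated quantile normalization 0.050 for ND-20L. With an array left out the differences ran from -0.12 to 0.28 for UQCR-Q, -0.091 to 0.018 for UQCR-11L, -0.081 to 0.054 for SdhB, -0.11 to 0.057 for SdhBL, -0.16 to 0.081 for SdhD, -0.32 to 0.25 for Sdhaf3, -0.13 to 0.072 for ND-20L, -0.050 to 0.16 for ATPsynbetaL, -0.062 to 0.32 for ATPsynbeta, -0.24 to 0.010 for brp, -0.74 to 1.22 for tws, -1.02 to 0.28 for elav, -0.014 to 0.88 for twe, -0.0034 to 0.18 for Lsp2 and -0.13 to 0.16 for Fbp1.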
